A study of Mus musculus with 86 samples.

Results

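The 9 genes described here, Mstn, Tgfb1, Fst, Acvr2a, Acvr2b, Smad2, Smad3, Smad4 and Smad7, encode ligands, an extracellular inhibitor, receptors and intracellular Smads of myostatin, activin and TGF-beta signalling. They were chosen by name from the 42807 gene symbols of a table of expected counts, and all 9 were in it and passed the filter on low counts in both muscles. DEX treatment went with higher Smad7 in both muscles. In gastrocnemius Mstn, Smad2 and Smad4 were also higher and Fst was lower. In soleus Tgfb1 and Acvr2b were also higher, and Smad3 and Acvr2a were lower. The tests left out 3 libraries, and with all 86 in the fit the calls of Mstn, Fst, Smad4, Tgfb1 and Acvr2a were lost. For 6 of the 9 genes the response to DEX differed between the muscles, where it did so for 33.6% of all genes tested. With all 86 libraries in the fit the count was 2, as 3 libraries were left out of the tests.

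Myostatin, the product of Mstn, is a growth factor of the TGF-beta superfamily that muscle fibres secrete and that limits muscle mass. Myostatin and activins bind the type II receptors ACVR2A and ACVR2B, which recruit type I receptors that phosphorylate SMAD2 and SMAD3. These join SMAD4 and enter the nucleus, while follistatin, the product of Fst, binds the ligands outside the cell and SMAD7 blocks the pathway at the receptor.

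Male C57BL/6N mice aged 10 weeks were injected intraperitoneally for 10 days with dexamethasone (DEX), a synthetic glucocorticoid, at 25 mg/kg/day, to induce muscle atrophy. Non-treated mice were injected with PBS. After each DEX injection, 6 groups were gavaged with a water extract of peony root and liquorice root (JGT), 3 at 100 and 3 at 400 mg/kg/day. The parts of peony to liquorice were 2 to 1 in JGT02, 1 to 1 in JGT03 and 1 to 2 in JGT04. A further group received resveratrol, the study's positive control, at 200 mg/kg/day. Non-treated mice and mice given DEX alone were gavaged with PBS and the others with a cellulose suspension, so the effect of an extract and that of the suspending agent cannot be told apart. RNA of whole gastrocnemius (GA, rich in fast fibres) and soleus (SO, rich in slow fibres) was sequenced in 43 libraries per muscle, which form 9 groups with 5 libraries each, or 4 for DEX alone and for JGT04 at 400 mg/kg. The labels do not say whether a number marks the same mouse in both muscles. In whole tissue, fewer cells of a type and less RNA per cell cannot be told apart.

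GA libraries held between 22.3 M and 32.1 M counts, where M is 1e+06, and SO libraries between 18.8 M and 34.6 M. In 3 libraries the marker genes went against the label or the group. The library labelled SO JGT02 400 mouse 1 had 25502 CPM of the fast myosin gene Myh4 against 9.88 to 2819 in the other SO libraries, and 13.99 CPM of the slow myosin gene Myh7 against 4066 to 8928. GA JGT02 100 mouse 1 and SO JGT02 100 mouse 5 held 1167 and 1027 CPM of the embryonic myosin gene Myh3, against at most 26.3 and 119 in the others of their muscle, and 136 and 145 CPM of the macrophage gene Cd68. These 3 libraries were left out of the tests and of the means below, and results that rest on them are also given with them. CPM are counts per 1e+06 counts of a library, after TMM scaling over all 86 libraries. Differences are log2 fold changes ± SE from the quasi-likelihood test of edgeR, with p-values adjusted by Benjamini-Hochberg over all genes tested and a threshold of 0.05.

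The promoters of Mstn and Smad3 are shown because these genes carry the largest difference between the muscles and the largest fall with DEX among the 9. Both are RefSeq windows on GRCm38.p6, 250 bases before to 50 after the annotated start, written 5′ to 3′ on the gene's strand, with E-boxes (CANNTG, the motif of myogenic and other helix-loop-helix factors) in capitals.
Mstn, chr1:53061390-53061689, plus strand: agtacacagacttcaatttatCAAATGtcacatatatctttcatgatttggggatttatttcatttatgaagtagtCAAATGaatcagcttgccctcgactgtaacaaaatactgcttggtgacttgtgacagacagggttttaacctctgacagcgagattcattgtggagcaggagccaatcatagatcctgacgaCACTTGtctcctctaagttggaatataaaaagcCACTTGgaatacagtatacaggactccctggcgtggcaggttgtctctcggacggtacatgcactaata
Smad3, chr9:63757945-63758244, minus strand: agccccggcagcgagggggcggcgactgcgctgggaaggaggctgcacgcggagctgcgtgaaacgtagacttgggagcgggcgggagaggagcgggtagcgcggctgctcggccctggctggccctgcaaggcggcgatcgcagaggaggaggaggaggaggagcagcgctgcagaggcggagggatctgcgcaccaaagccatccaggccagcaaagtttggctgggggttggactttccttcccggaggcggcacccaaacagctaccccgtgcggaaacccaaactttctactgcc
The Mstn window held 4 E-boxes and the Smad3 window 0, where 72.3% of 32817 promoter windows of the same length held at least 1. The short element of Smad proteins, CAGAC, was found at 2 places for Mstn and 0 for Smad3, and 49.6% of windows hold it. Windows were also at hand for Acvr2a, Acvr2b and Tgfb1, 5 of the 9 genes in all, with 1, 1 and 0 CAGAC and no E-box. None of the 5 held the short element of the glucocorticoid receptor, TGTTCT (19% of windows), its full element searched by name (0.00914%), the full Smad element GTCTAGAC (0.213%) or the FoxO element TGTTTAC (3.65%). Both strands were searched, and a match is a run of letters and not a binding site.

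The question of the first comparison was how the levels differ between the fast and the slow muscle of non-treated mice. Mstn was by far the most unequal of the 9. Its 5 GA values were 93.5, 75.9, 83.9, 80.2 and 123 CPM and its 5 SO values were 3.13, 0.832, 0.997, 2.16 and 0.774 CPM. No SO value came near a GA value, and the difference was -5.82 ± 0.26, a 56.4-fold lower level in SO (adjusted p = 8.84e-32). Mstn rested on 1973 to 3650 counts per library in GA and on 9 to 159 in SO, so its SO values carry more counting error.

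Of the 9 genes, 6 differed between the muscles of non-treated mice, 2 higher and 4 lower in SO, where 58.1% of all genes tested differed. The receptor gene Acvr2a was 2.22-fold lower in SO (-1.15 ± 0.09), Smad3 1.71-fold lower (-0.77 ± 0.11) and Smad4, the shared partner of the receptor-activated Smads, 1.39-fold lower (-0.47 ± 0.05). Fst was 2.12-fold higher in SO (1.08 ± 0.16) and Tgfb1, the gene of the ligand TGF-beta 1, 1.55-fold higher (0.64 ± 0.12). With all 86 libraries the adjusted p of Tgfb1 was 0.159. Differences of Acvr2b, Smad2 and Smad7 had intervals (2 SE either way, here and below) that include 0, from -0.15 to 0.82, from -0.26 to 0.04 and from -0.06 to 0.37.

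Per kilobase of exon, Mstn led in GA at 33.7 CPM per kb, ahead of Smad3 at 18.4, Smad4 at 13 and Acvr2a at 8.65. In SO the order of these 4 levels was Smad3 at 10.7, Smad4 at 9.31, Acvr2a at 3.88 and Mstn at 0.583 CPM per kb. Smad7, Tgfb1, Smad2 and Fst lay between 0.786 and 1.94 CPM per kb in both muscles of non-treated mice. Acvr2b was the lowest in both, at 0.184 in GA and 0.231 in SO, so in GA the messenger of ACVR2B was far scarcer per length than that of ACVR2A.

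**Figure D1:**
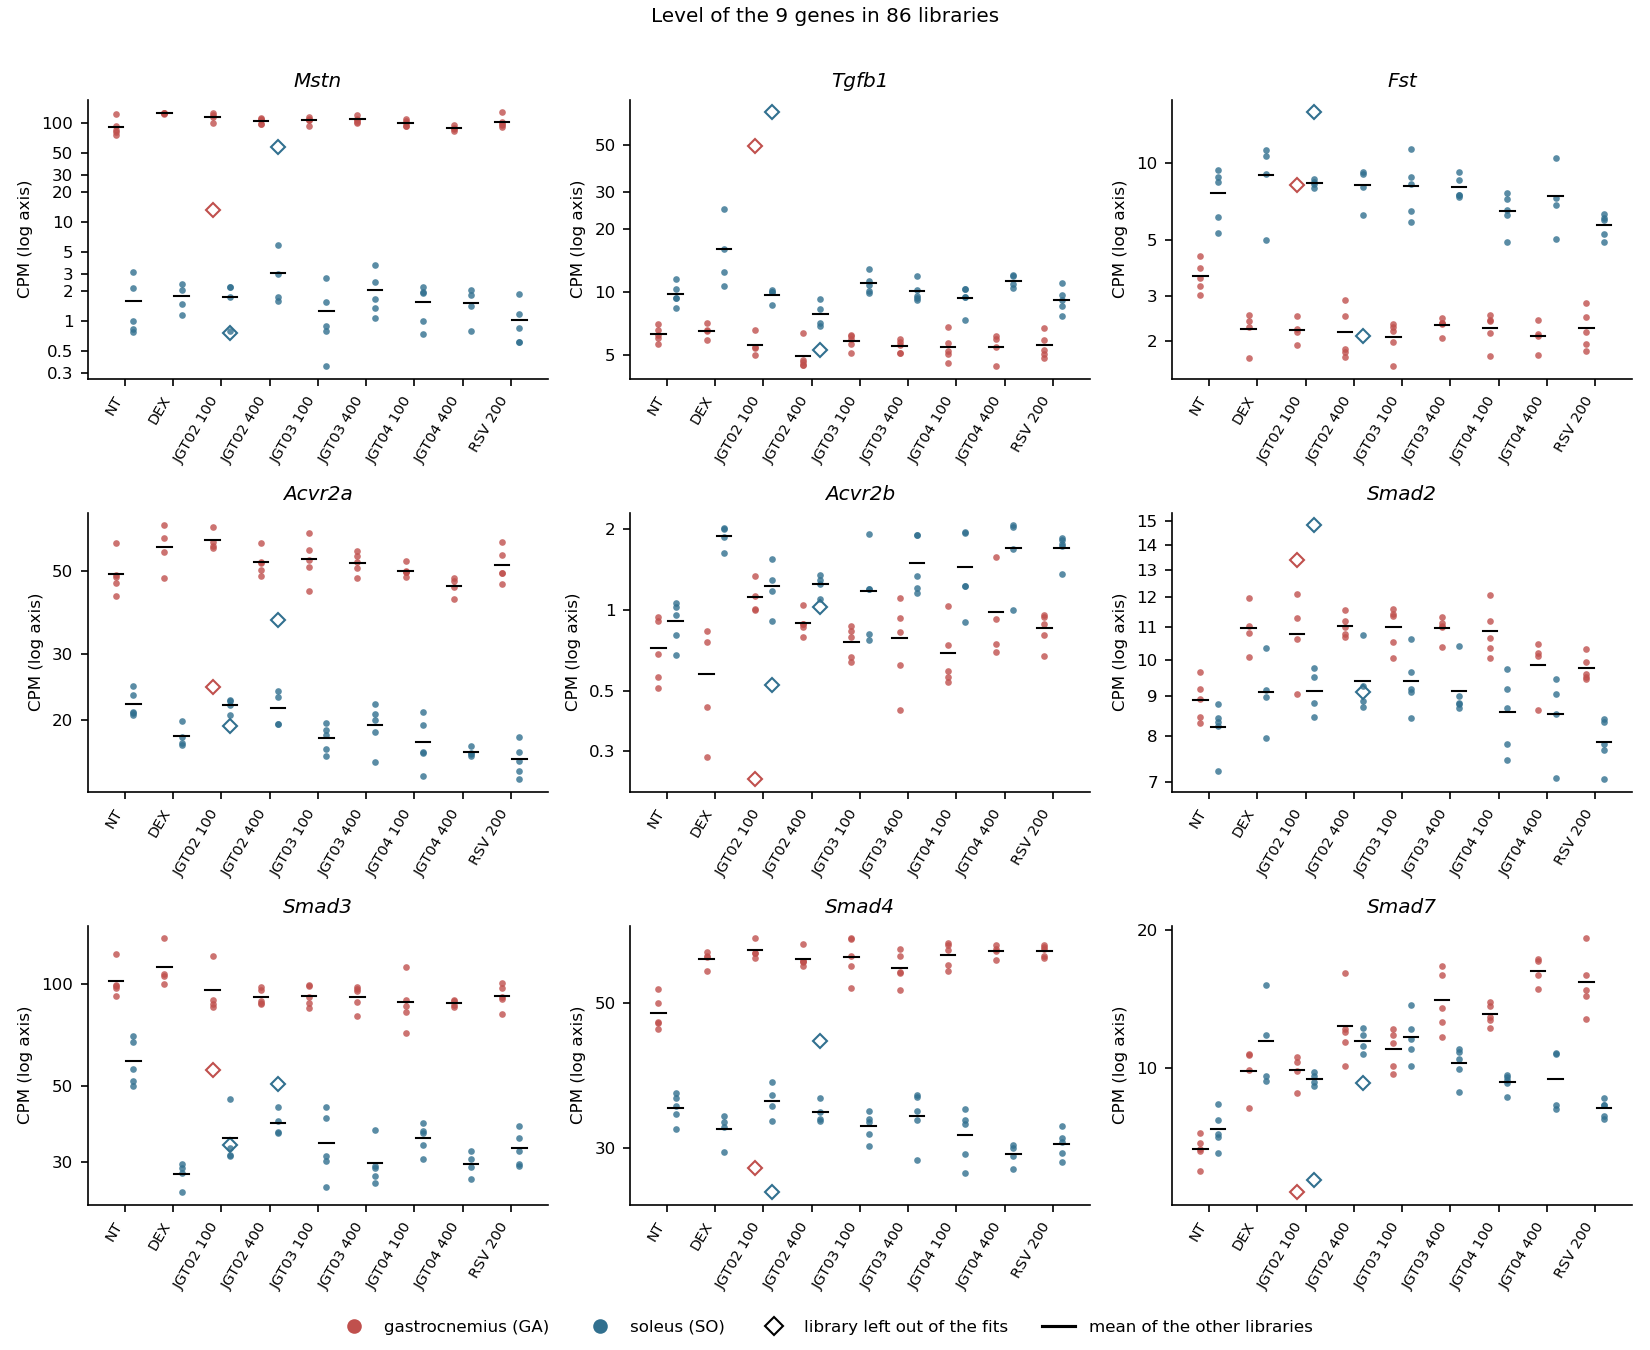
CPM (log axis) of the 9 genes in each of 86 libraries, by group, with GA in red, SO in blue, lines for the mean of the libraries in the tests and open diamonds for the 3 libraries left out. Apart from the diamonds, Mstn does not overlap between the muscles in any group, GA Smad7 has means from 6.67 CPM in non-treated mice to 16.3 with JGT04 at 400 mg/kg, and SO Smad3 is higher in non-treated mice than in all 36 DEX-receiving libraries.

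The next comparison asked what DEX alone did in each muscle. In GA, 5 of the 9 genes passed the test, 4 higher and 1 lower, where 26.4% of all genes tested did. The median over the 9 was 0.22 and that over all genes was -0.01 on the log2 scale. In SO, 5 of the 9 passed, 3 higher and 2 lower, where 43.2% of all genes did, with a median of 0.18 over the 9 and 0.05 over all genes. In each muscle, 4 of the 9 did not pass. With all 86 libraries in the fits, Smad2 and Smad7 still passed in GA and Smad3, Smad7 and Acvr2b in SO.

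Mstn rose with DEX in GA. Its values were 126, 123, 126 and 125 CPM with DEX against 93.5, 75.9, 83.9, 80.2 and 123 CPM without. Of the DEX libraries, 3 lay above every non-treated one, and non-treated mouse 5 reached the DEX level. The difference was 0.44 ± 0.09 (1.35-fold, adjusted p = 0.000456). In SO the DEX values of 1.48, 1.16, 2.36 and 2.06 CPM lay inside the non-treated range, and the difference of 0.18 ± 0.47 had an interval from -0.77 to 1.12 that includes the change seen in GA. With all 86 libraries in the fit the GA difference was 0.43 with an adjusted p of 0.34.

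Tgfb1 behaved differently in the muscles. In GA it read 5.93, 6.52, 6.59 and 7.08 CPM with DEX and 6.61, 7.02, 6.26, 5.65 and 6.05 CPM without, a difference of 0.03 ± 0.11 with an interval from -0.18 to 0.25. In SO it read 12.5, 10.6, 16.0 and 24.9 CPM with DEX and 10.3, 9.34, 11.5, 9.33 and 8.37 CPM without. The groups overlapped by 1 library, DEX mouse 2, and the difference was 0.73 ± 0.15 (1.66-fold, adjusted p = 0.00018). DEX mouse 4, with the highest value, also had a summed level of 297 CPM of 5 macrophage markers, where the other DEX libraries had 32.1 to 51.2 and the non-treated ones 27.4 to 57.8. Without that library the difference was 0.43 ± 0.12 (adjusted p = 0.0075), and with all 86 libraries 0.72 (adjusted p = 0.16).

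Fst, the inhibitor of myostatin and activins, fell in GA. Its values were 1.72, 2.26, 2.52 and 2.40 CPM with DEX against 3.03, 3.54, 3.28, 3.88 and 4.29 CPM without. The groups did not overlap, and the difference was -0.71 ± 0.14 (1.64-fold lower, adjusted p = 0.000197). The summed level of 5 fibroblast markers was also lower in GA, at 124 to 176 CPM against 335 to 446 CPM, and 3 of the 5 passed, all lower. Other cell markers moved in GA too: 4 adipocyte markers summed to 62.5 to 87.6 CPM with DEX against 14.1 to 34.5 CPM, and 4 passed as higher. The 6 endothelial markers summed to 206 to 228 CPM against 245 to 273 CPM, and 4 passed as lower. The 4 tendon markers summed to overlapping ranges, 75.8 to 183 CPM against 122 to 347 CPM, with 3 lower and 1 higher. Of all genes 13.2% rose and 13.2% fell. The part of these cells in the GA results was not tested. In SO, Fst read 4.98, 11.2, 9.07 and 10.7 CPM with DEX and 6.12, 8.81, 9.43, 8.41 and 5.31 CPM without. These groups overlapped widely, with an interval of the difference from -0.13 to 0.65.

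The type II receptor genes moved in SO, in opposite directions. Acvr2a fell from 20.6, 20.8, 21.0, 24.6 and 23.3 CPM to 17.2, 19.8, 17.4 and 18.04 CPM without overlap, by 0.27 ± 0.09 on the log2 scale (adjusted p = 0.0184). The adjusted p of Acvr2a was 0.056 without non-treated mouse 4 and 0.051 without DEX mouse 3. Acvr2b rose from 1.06, 0.681, 0.961, 1.02 and 0.811 CPM to 1.63, 1.86, 2.02 and 1.99 CPM, again without overlap. The Acvr2b difference of 1.06 ± 0.24 (2.08-fold, adjusted p = 0.000514) rests on 18 to 32 counts per non-treated library and 33 to 54 per DEX library. In GA, Acvr2a differed by 0.22 ± 0.09 (adjusted p = 0.0537) and Acvr2b, at 8 to 24 counts in the DEX libraries, by -0.34 ± 0.27 (adjusted p = 0.381).

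Among the receptor-activated Smads, Smad3 showed the largest fall with DEX of the 9 genes, and it did so in SO. SO values were 70.3, 50, 51.6, 67.6 and 56.1 CPM without DEX and 28.7, 24.4, 27.8 and 29.5 CPM with it. The lowest non-treated value lay far above the highest DEX value, and the difference was -1.09 ± 0.13 (2.13-fold lower, adjusted p = 9.74e-08). GA values of Smad3 were 99, 97, 92.4, 98.3 and 122 CPM without DEX and 107, 105, 99.7 and 136 CPM with it, which overlapped, and the difference had an interval from -0.07 to 0.31. Smad2 rose slightly in GA, from 8.31, 8.91, 9.17, 8.45 and 9.64 CPM to 10.8, 12, 11 and 10.1 CPM without overlap (0.29 ± 0.07, adjusted p = 0.000982), and its SO interval ran from -0.02 to 0.35.

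Smad4, the common partner, also rose in GA, from 52.4, 50.1, 46.5, 46.7 and 45.5 CPM to 59, 59.9, 58.8 and 56 CPM. The groups did not overlap, and at 1.20-fold this was the smallest difference of the 5 that passed in GA, with the smallest p (0.26 ± 0.04, adjusted p = 1.29e-05). In SO, Smad4 read 32.1 to 36.4 CPM without DEX and 29.6 to 33.5 CPM with it, with an interval from -0.22 to 0.03.

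Smad7, the inhibitory Smad and itself a target of TGF-beta signalling, was the gene that rose in both muscles. In GA it went from 7.22, 6.6, 5.96, 6.87 and 6.68 CPM to 10.7, 8.2, 10.7 and 9.9 CPM, a difference of 0.55 ± 0.12 (1.47-fold, adjusted p = 0.000314). In SO it went from 7.18, 6.54, 7.08, 8.34 and 7.71 CPM to 9.37, 11.8, 15.2 and 9.61 CPM, a difference of 0.65 ± 0.10 (1.57-fold, adjusted p = 7.06e-06). No DEX library overlapped a non-treated one in either muscle. The highest SO value was that of DEX mouse 3, and without it the difference was 0.49 (adjusted p = 0.00017). The SO DEX libraries differed among themselves in other cell types: 5 Schwann cell markers summed to 389, 64.6, 363 and 34.1 CPM, against 36.5 to 84.3 CPM without DEX, and 4 adipocyte markers to between 52.2 and 255 CPM, against 3.89 to 40.1 CPM. The part of these cells in the SO results was not tested.

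**Figure D2:**
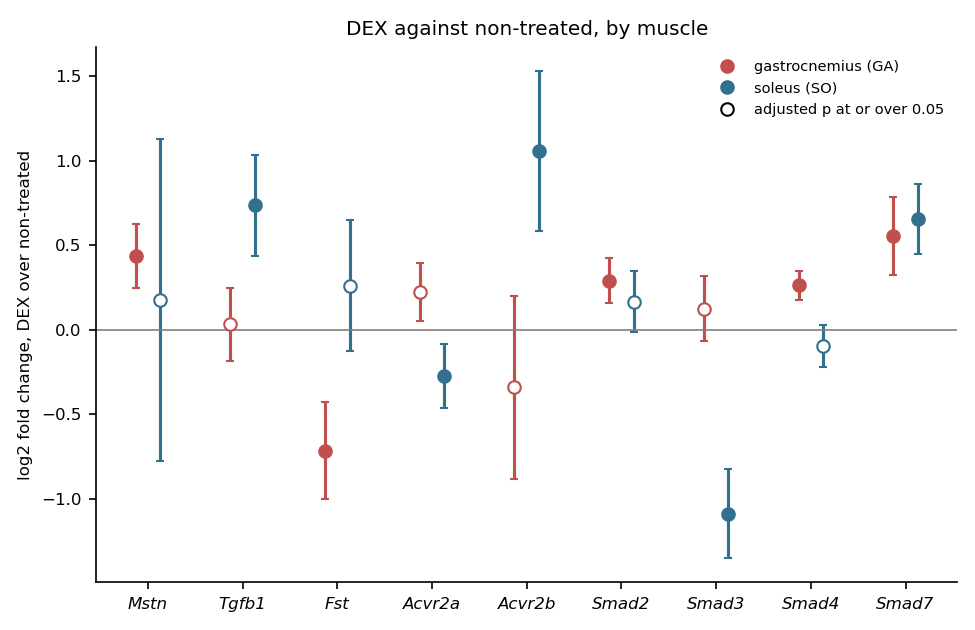
log2 fold change of the 9 genes with DEX alone over non-treated mice in GA and in SO, with bars of 2 SE either way and filled points for an adjusted p under 0.05. Smad7 lies at 0.55 in GA and 0.65 in SO, while Smad3 lies at 0.12 in GA and -1.09 in SO.

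The same contrast over all 8 DEX-receiving groups used more libraries. In GA, 5 of the 9 genes passed, where 42.7% of all genes did: Smad7 (0.91 ± 0.09), Smad4 (0.28), Smad2 (0.25) and Mstn (0.20) were higher and Fst (-0.72) lower. The Mstn call was lost when non-treated mouse 2, 3 or 4 was left out, at 0.14, 0.18 and 0.15 with adjusted p of 0.12, 0.0595 and 0.105. In SO, 4 of the 9 passed, where 34.4% of all genes did: Acvr2b (0.68) and Smad7 (0.45) were higher, and Smad3 (-0.85) and Acvr2a (-0.26) lower. With a term for 3 stretches of the listed library order (described with the treatments), Acvr2b stood at 0.75 (adjusted p = 0.102) and Acvr2a at -0.08 (adjusted p = 0.681), and the calls of Smad3 and Smad7 were left. Levels over single libraries are given for 3 genes as a description, as the share of all genes without overlap was not computed. All 37 DEX-receiving GA libraries read 1.59 to 2.88 CPM of Fst, below every non-treated one, and 8.20 to 19.2 CPM of Smad7, above every non-treated one, and all 36 DEX-receiving SO libraries read 24.4 to 45.7 CPM of Smad3, below every non-treated one.

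Whether the DEX response differed between the muscles was tested as an interaction. It passed for 6 of the 9 genes, where it did so for 33.6% of all genes. The response of Smad3 was lower in SO, where it fell, than in GA, where it did not pass (-1.27 ± 0.17, adjusted p = 1.39e-08), and Acvr2a (-0.56 ± 0.13) and Smad4 (-0.42 ± 0.08) responded less or downwards in SO. Acvr2b (1.33 ± 0.36), Fst (0.91 ± 0.25) and Tgfb1 (0.64 ± 0.18, adjusted p = 0.00525) went the other way. The Tgfb1 interaction was 0.33 with an adjusted p of 0.12 without SO DEX mouse 4. With all 86 libraries, the interactions of Smad3 and Acvr2b still passed. Smad7 differed by 0.04 between the muscles with an interval from -0.27 to 0.35, Smad2 by -0.19 (from -0.40 to 0.03) and Mstn by -0.33 (from -1.16 to 0.50), intervals that leave room for a difference in either direction.

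In mice given DEX alone, 8 of the 9 genes differed between the muscles, 3 higher and 5 lower in SO, where 69.7% of all genes did. Smad3 was then 4.13-fold lower in SO, against 1.71-fold in non-treated mice, and Fst 3.99-fold higher, against 2.12-fold. Acvr2b, which did not pass between the muscles of non-treated mice, was 3.18-fold higher in SO. Smad7 was the gene that did not pass, at 0.20 with an interval from -0.03 to 0.42.

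Each treatment was then compared with DEX alone. The 7 comparisons of a muscle share the same 4 DEX libraries, so they are not independent of each other. In GA, 10 of 63 comparisons of a gene with a treatment passed (15.9%), 4 higher and 6 lower, where 6.36% of all comparisons over all genes did. The number of the 9 that passed was 1 with JGT02 400 (5.7% of all genes), 1 with JGT03 400 (6.49%), 3 with JGT04 100 (9.36%), 4 with JGT04 400 (11.3%) and 1 with resveratrol (9.47%). JGT02 and JGT03 at 100 mg/kg had 0 of the 10 calls, with 0.963% and 1.17% of all genes passing and 2 of the 9 genes at an unadjusted p under 0.05 for each.

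In GA, Smad7 rose further above its DEX level with 4 treatments. It read 13.5, 16, 16.7, 12.6 and 11.7 CPM with JGT03 400, 12.2, 12.8, 12.9, 13.7 and 14 CPM with JGT04 100, 17.2, 16, 17.3 and 14.9 CPM with JGT04 400, and 16, 14.8, 14.4, 12.8 and 19.2 CPM with resveratrol. Every one of these libraries lay above the highest DEX library. The differences were 0.53, 0.43, 0.74 ± 0.11 and 0.65 ± 0.11, with adjusted p of 0.002, 0.01, 2.8e-05 and 8.9e-05. The JGT04 100 difference was 0.35 (adjusted p = 0.0606) without DEX mouse 2. With all 86 libraries, Smad7 still passed with JGT03 400, JGT04 400 and resveratrol. JGT02 at 100 mg/kg, at 8.84, 10.3, 10.6 and 9.86 CPM, overlapped the DEX libraries.

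GA Mstn had a negative sign against DEX with 7 of 7 treatments and passed with JGT04. It read 110, 98.4, 91.7, 105 and 93.8 CPM with JGT04 100 (-0.30, adjusted p = 0.033) and 88.7, 94.7, 86.4 and 82.3 CPM with JGT04 400 (-0.49 ± 0.10, adjusted p = 0.00085). Neither group overlapped the DEX libraries, which lay close together with an SD of 1.55 CPM. JGT02 400, JGT03 100 and JGT03 400 did not overlap them either, and did not pass. The JGT04 400 values lay inside the non-treated range. Leaving out any of 7 of the 9 libraries compared ended the Mstn call with JGT04 100, at adjusted p of 0.0575 to 0.0837, and none ended that with JGT04 400. Smad3 passed with the same 2 treatments (-0.32 and -0.34), and without DEX mouse 4, which had the highest Smad3 value, it stood at -0.21 and -0.23 with adjusted p of 0.185 and 0.173. Each of these calls was lost without any of 3 of the libraries compared, DEX mouse 4 among them. Acvr2a was lower with JGT04 400 (-0.33, adjusted p = 0.015), and Tgfb1 with JGT02 400, where it read 4.75, 4.63, 4.5, 4.49 and 6.35 CPM (-0.40, adjusted p = 0.025). Without DEX mouse 2, Acvr2a with JGT04 400 stood at -0.26 (adjusted p = 0.0844). Leaving out any of 6 of the 9 libraries compared put the Tgfb1 call at adjusted p of 0.0542 to 0.0806. With all 86 libraries, the calls above of Mstn, Smad3, Acvr2a and Tgfb1 were all lost, that of Mstn with JGT04 400 included.

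The listed order of the libraries falls into 3 stretches of 32, 28 and 26 libraries that were seen in earlier work on these data and that the labels do not mention. Non-treated and DEX libraries of a muscle lie in the same stretch, while JGT04 400 and resveratrol in GA, and most treatments in SO, lie in another than their DEX controls. GA JGT04 100 has 3 libraries in stretch 1 and 2 in stretch 2. SO JGT02 400 as labelled has 3 in stretch 2 and 2 in stretch 3. No other group of a muscle spans stretches, so a term for them rests on these few libraries. All GA non-treated and DEX libraries lie in stretch 1 and all SO ones in stretch 2, so the comparisons between the muscles run across stretches. With the stretch as a term in the fit, 2 of the 10 GA calls were left, Smad7 with JGT03 400 (0.53, adjusted p = 0.0022) and Tgfb1 with JGT02 400. Smad7 then stood at 0.61 with JGT04 400 (adjusted p = 0.14) and at 0.53 with resveratrol (adjusted p = 0.24), and Mstn at -0.48 with JGT04 400 (adjusted p = 0.2). For these groups the treatment and the stretch cannot be told apart. Between the muscles, the term left 5 of 6 calls in non-treated mice, without Tgfb1 (0.42, adjusted p = 0.14), and 7 of 8 in mice given DEX alone, without Smad2 (-0.17, adjusted p = 0.266). Over all genes it gave 5827 calls in place of 8801 and 7865 in place of 10561.

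**Figure D3:**
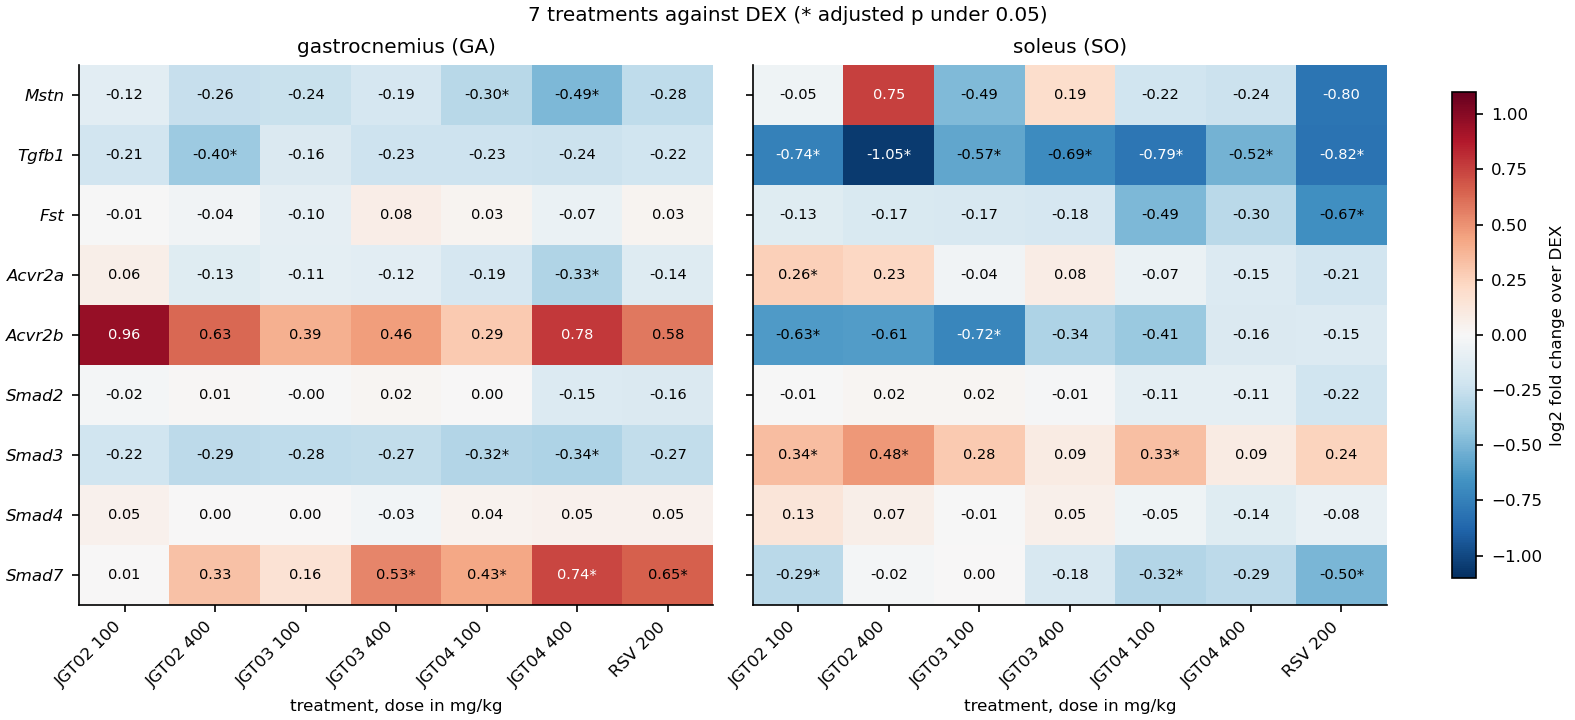
log2 fold change over DEX alone of the 9 genes (rows) with each of 7 treatments (columns) in GA and SO, coloured by sign and size, with a star for an adjusted p under 0.05. In GA the stars gather on Smad7 and on the JGT04 columns, and in SO on the Tgfb1 row, where all 7 values lie between -1.05 and -0.52.

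In SO, 17 of 63 comparisons passed (27%), 4 higher and 13 lower, where 30.5% of all comparisons over all genes did, so the share is no higher than the background. The number of the 9 that passed was 5 with JGT02 100 (35.7% of all genes), 2 with JGT02 400 (30.3%), 2 with JGT03 100 (30%), 1 with JGT03 400 (27.5%), 3 with JGT04 100 (31.2%), 1 with JGT04 400 (22.2%) and 3 with resveratrol (36.7%). Tgfb1 was lower than with DEX alone in 7 of 7 treatments, by 0.52 to 1.05 on the log2 scale. The 32 treated libraries read 6.86 to 12.8 CPM with a median of 9.96, close to the non-treated mean of 9.77 CPM, while the DEX mean was 16.0 ± 6.33 CPM (SD, n = 4). The treated libraries overlapped the 2 lower DEX libraries. Without DEX mouse 4, Tgfb1 with JGT03 100 stood at -0.26 (adjusted p = 0.14) and with JGT04 400 at -0.20 (adjusted p = 0.33), and with the stretch as a term the calls with JGT02 100 and JGT02 400 were left. Macrophage markers summed to 20.4 to 88.4 CPM in the treated libraries.

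SO Smad3 rose partway with 3 treatments: to 31.2, 33, 45.7 and 31.3 CPM with JGT02 100 (0.34), to 36.7, 36.5, 39.4 and 43.5 CPM with JGT02 400 (0.48) and to 38.9, 36.4, 30.5, 37 and 33.6 CPM with JGT04 100 (0.33). All of these lay above the DEX range of 24.4 to 29.5 CPM and below the non-treated range. The JGT02 400 call held with each library left out. That with JGT02 100 was lost without any of 6 of the 8 libraries compared, with a value of 0.20 (adjusted p = 0.271) without JGT02 100 mouse 3, and that with JGT04 100 without any of 7 of the 9, with 0.28 (adjusted p = 0.13) without DEX mouse 2. Smad7 was lower with JGT02 100 (-0.29), JGT04 100 (-0.32) and resveratrol (-0.50, adjusted p = 0.00038). With resveratrol it read 7.86, 8.62, 7.77, 8.31 and 8.30 CPM, below every DEX library. Without DEX mouse 3, Smad7 stood at -0.13 with JGT02 100 and -0.16 with JGT04 100, with adjusted p of 0.35 and 0.23. The JGT02 100 call was lost without any of 5 of the 8 libraries compared.

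The remaining SO calls were few. Fst fell with resveratrol, to 5.95, 5.27, 4.89, 6.06 and 6.30 CPM (-0.67, adjusted p = 0.0076), which overlapped the lowest DEX library of 4.98 CPM. Acvr2b fell with JGT02 100 (-0.63) and JGT03 100 (-0.72), and Acvr2a rose with JGT02 100, to 22.7, 22, 22.5 and 20.6 CPM (0.26, adjusted p = 0.036). These 3 calls of the receptors were each lost when 1 of several libraries was left out, at adjusted p of 0.0513 to 0.131. SO Mstn passed with 0 of 7 treatments. With the library labelled SO JGT02 400 mouse 1, which read 56.8 CPM of Mstn, the JGT02 400 difference was called at 2.96. With the stretch as a term, Smad7 and Fst with resveratrol stood at -0.51 (adjusted p = 0.36) and -0.34 (adjusted p = 0.79).

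**Figure D4:**
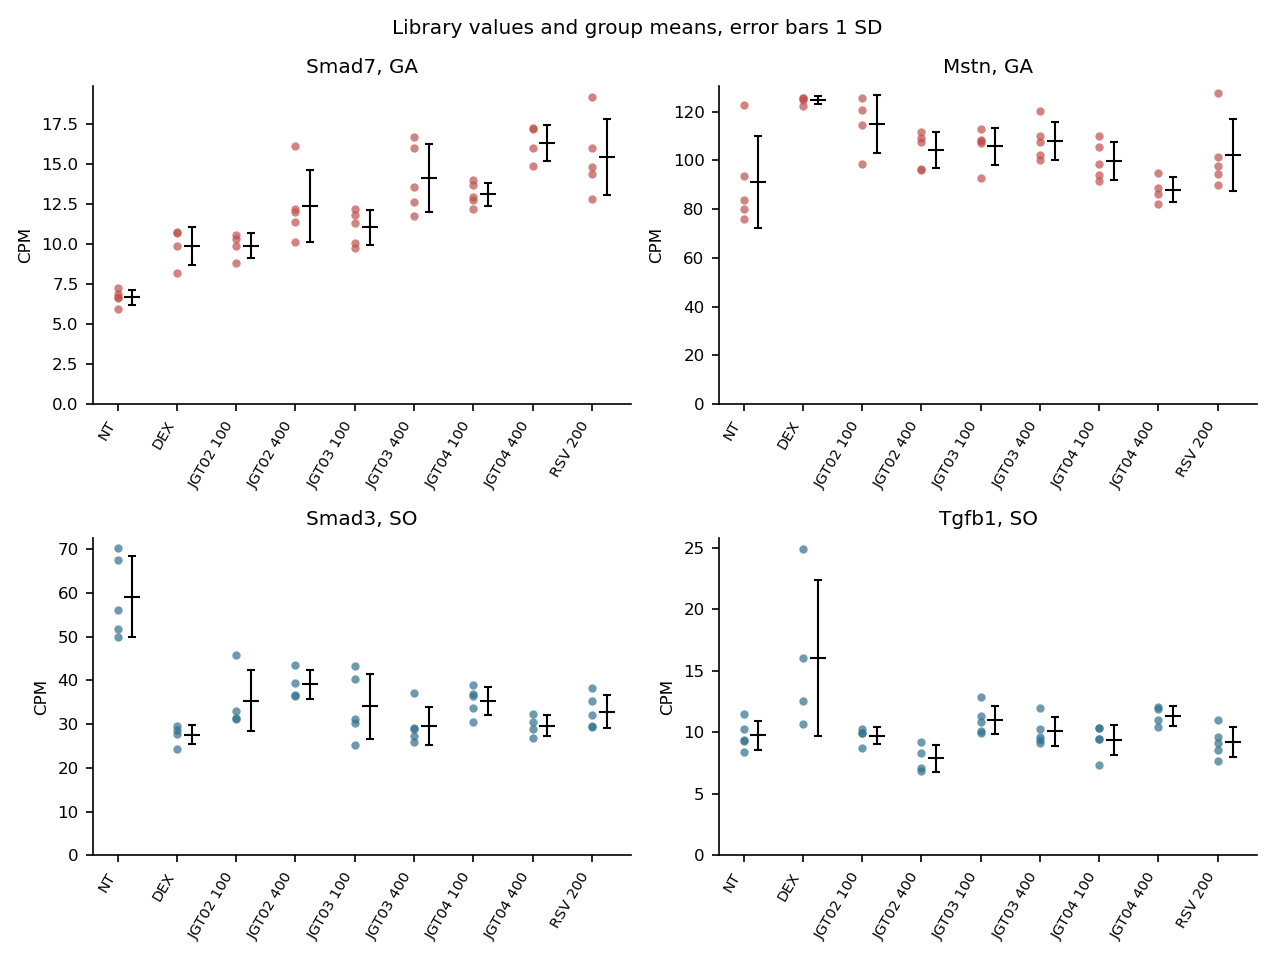
CPM (linear axes from 0) by group of Smad7 and Mstn in GA and of Smad3 and Tgfb1 in SO, with points for libraries in the tests and mean ± SD. SO Tgfb1 has its widest spread in the DEX group, 16.0 ± 6.33 CPM, where 1 of 4 libraries reads 24.9 CPM.

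The 400 mg/kg dose was compared with 100 mg/kg over the 3 extracts together. In GA, Smad7 was the gene of the 9 that passed, at 0.33 ± 0.06 (1.26-fold, adjusted p = 0.0016), where 1.68% of all genes did, and with the stretch as a term it stood at 0.31 (adjusted p = 0.016). In SO the edgeR test called 0 of the 9 and 0 of 14696 genes. There, 1917 genes and 0 of the 9 had an unadjusted p under 0.05, and DESeq2 called 22 genes and 0 of the 9. The Smad7 interval in SO ran from -0.08 to 0.16, below the size seen in GA, although the difference between the muscles was not tested.

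Over the 8 DEX-receiving groups, an F test for any difference passed for 3 of the 9 genes in GA, where 14.6% of all genes did, namely Smad7 (adjusted p = 3e-06), Mstn (0.017) and Acvr2a (0.046). Leaving out 1 library ended the Acvr2a call in 25 cases, at adjusted p up to 0.11. In SO it passed for 5 of the 9, Acvr2a, Smad3, Smad4, Smad7 and Tgfb1, where 50.1% of all genes did. Leaving out 1 library ended the SO Smad3 call in 6 of 36 cases, at adjusted p up to 0.0762. Fst in GA, which did not overlap between DEX-receiving and non-treated libraries in the tests, had group means between 2.07 and 2.31 CPM across those 8 groups.

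The genes whose level across libraries was most like that of Mstn and Smad3 were named as a description, by Pearson correlation of log2 CPM within a muscle. The libraries share their groups, so these values mix differences between groups with those between mice. Over 42 GA libraries, Mstn was most like Hsd17b7 (r = 0.82), Ascc3 (0.72) and Musk (0.71), a receptor kinase of the neuromuscular junction. Over 41 SO libraries it was most like Tmem56 (0.87), Gpd2 (0.84) and Atp1b2 (0.81). The fast fibre genes Myh4 and Actn3 ranked 8 and 11 there, with r of 0.74 and 0.71, while the slow Myh7 had r of -0.43, and these 3 were picked by name after their values were seen. In GA the same genes had r of -0.28 (Myh4), 0.19 (Actn3) and -0.29 (Myh7) with Mstn. Smad3 was most like Tecpr2 (0.78), Piezo1 (0.78) and Lrp6 (0.76) in GA, and in SO its like genes included Wbp1l (0.81) and Fastkd1 (0.80).

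Around the 9 genes, a list of 66 other genes of the superfamily was examined, of which 62 were tested in GA and 63 in SO. With DEX alone, 11 rose and 8 fell in GA (30.6% of those tested), and 19 rose and 10 fell in SO (46%), close to the 26.4% and 43.2% of all genes. Pmepa1, a target that dampens TGF-beta signalling, rose in both muscles, by 1.06 in GA and 1.01 in SO. In GA the type I receptor genes Acvr1b (0.76) and Bmpr1a (0.51) and the Smad phosphatase gene Ppm1a (0.27) also rose. Among the 8 that fell there were Ltbp4 (-0.54) and Ltbp1 (-0.32), which encode latent TGF-beta binding proteins, Dcn (-0.49), for the matrix proteoglycan decorin, and Smurf1 (-0.30), for a ubiquitin ligase of the pathway.

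In SO the rises included Eng (1.01), for the endothelial co-receptor endoglin, Fkbp1a (0.35), whose product binds type I receptors, and the Smad repressor gene Ski (0.31). Falls included Zfyve9 (-0.40), for the SMAD anchor SARA, Fbxo30 (-0.48), for a ubiquitin ligase, Rgmb (-0.59), for a BMP co-receptor, and Wfikkn2 (-0.55), for a secreted myostatin binding protein. Endothelial markers summed to 319 to 417 CPM in SO with DEX and 246 to 331 CPM without, and their part in the Eng result was not tested. By role, 7 of 10 target genes rose in SO and 3 of 10 in GA, where 24% and 13.2% of all genes rose. Of 12 extracellular regulators, 5 fell in GA and 1 in SO, where 13.2% and 19.2% of all genes fell. These counts are a description, with no test of a role against other genes. Of the other Smad genes, 0 of 4 passed in either muscle.

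Between the muscles of non-treated mice, 20 of the 63 other genes tested were higher and 22 lower in SO (66.7%), where 58.1% of all genes differed. Gdf11, for the ligand closest to myostatin, was lower in SO by 3.12 on the log2 scale, and Acvr1b, for a type I receptor of activin and myostatin, by 1.90. With the treatments, Acvr1b was higher than with DEX alone in 6 of 7 GA and 7 of 7 SO comparisons, and Eng lower in 6 of 7 and 7 of 7. Over all genes 6.36% of GA and 30.5% of SO comparisons passed, and the 7 of a muscle share their DEX controls. Endothelial markers summed to 206 to 228 CPM with DEX alone and 135 to 219 CPM in treated GA libraries, and to 319 to 417 CPM and 210 to 328 CPM in SO. The dose comparison in GA called Skil (0.41), for a Smad repressor, Acvr1b (0.29) and Cdkn1a (-0.46), for a cell cycle inhibitor, among the others. Calls of these list genes were not rerun with the stretch as a term, with all 86 libraries or with a library left out. For groups that lie in another stretch than their DEX controls, treatment and stretch cannot be told apart here either.

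**Figure D5:**
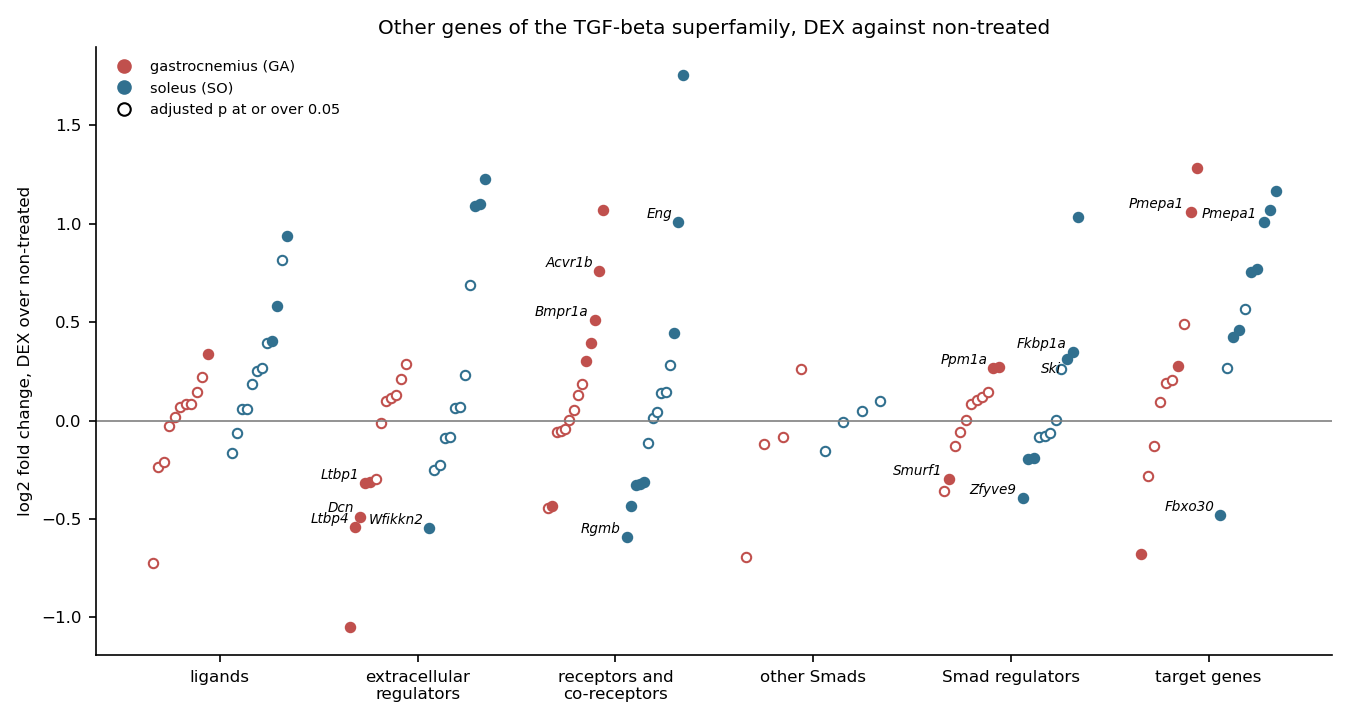
log2 fold change with DEX alone of the other genes of the superfamily, by role, with GA in red, SO in blue, open circles for an adjusted p at or over 0.05 and names for the genes given by the rule. Of the target genes in SO, 7 of 10 are filled above 0, where 24% of all genes rose, and of the extracellular regulators in GA, 5 of 12 are filled below 0, where 13.2% of all genes fell.

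On GRCm38 the 9 genes lie on 6 chromosomes: Mstn at chr1 53061640 to 53068079, Acvr2a at chr2 48814109 to 48903269, Tgfb1 at chr7 25687002 to 25705077, Acvr2b and Smad3 at chr9 119402118 to 119434995 and 63646767 to 63757994, Fst at chr13 114452290 to 114458951, and Smad4, Smad7 and Smad2 on chr18. Exons of Fst overlap those of Gm47040, and exons of Acvr2a those of Orc4, on the other strand. Whether strand was used in counting is not given in the sources used here, so reads of these pairs may be mixed. At most 1.79% of the 31-base words of any of the 9 genes occur in another gene.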

How the data were processed

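RNA of 86 mouse muscle libraries was sequenced with a strand-specific kit, per the labels' protocols. The authors deposited expected counts per gene symbol, and the submitters' processing notes name RSEM 1.3.3, STAR 2.7.3a, Trim Galore 0.6.5, FastQC 0.11.9 and the build GRCm38 (mm10). The annotation and settings are not given in the sources used here. Of the values 92.0% were whole (tolerance 0). They were rounded for edgeR 4.0.16 in R 4.3.3: filterByExpr on the groups, TMM, the quasi-likelihood test and Benjamini-Hochberg over all genes tested, at 0.05. One fit per muscle over 9 groups held 42 GA libraries (14428 genes) and 41 SO libraries (14696 genes), and 1 fit over both held 83 (15142 genes). SE is the log2 fold change over the square root of F. Intervals are 2 SE either way. The test sets each difference against the spread between libraries within groups, estimated over all groups of a fit. Alternatives were all 86 libraries, leaving out each library, DESeq2 1.42.0, its size factors, no filter, only the groups compared, a replicate block and the stretch term. They were kept for the 9 genes and for counts over all genes, and not for the list genes.

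The 9 genes, the lists, the 3 libraries left out and the stretches were chosen with earlier results of these data known. Named genes were the 9, up to 4 called list genes per direction by smallest p with a mean of at least 5 CPM, and the 3 genes most like Mstn and Smad3 by Pearson correlation (prior count of 2). A gene withheld for evaluation is not reported here. Some list genes in the treatment and dose comparisons were chosen after their values were seen. Mouse numbers were checked for pairing between muscles: of 40 pairs, 13 had a correlation of deviations over 0.1, and 10 matched their own number best. All numbers of JGT04 100 did so, at r of 0.19 to 0.31. The check cannot exclude that a number marks the same mouse, and the numbers were not taken as pairs. Totals had a median of 27.5 M counts per library.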

Additional observations from a re-analysis of the deposited data

Results flagged for a closer look

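In groups of 4 or 5 libraries, a value stood apart from the others of its group by Dixon's 95% limit in 20 of 162 groups of a gene, where chance gives about 1 in 20. Of these, 12 lay in the 3 libraries whose markers went against their label or group. GA JGT02 100 mouse 1 read 13.1 CPM of Mstn (others 98.4 to 126), 49.9 of Tgfb1 (5.03 to 6.58), 8.17 of Fst (1.92 to 2.49), 24.6 of Acvr2a (57.7 to 65.9) and 27.9 of Smad4 (58.5 to 62.8). SO JGT02 100 mouse 5 read 72.0 CPM of Tgfb1 (8.70 to 10.3), 15.9 of Fst (7.97 to 8.67), 14.8 of Smad2 (8.46 to 9.77) and 5.70 of Smad7 (9.13 to 9.81). Both of these libraries thus had high Tgfb1 and Fst beside their high Myh3 and Cd68. The library labelled SO JGT02 400 mouse 1 read 56.8 CPM of Mstn (1.59 to 5.85), 37.0 of Acvr2a (19.5 to 24.0) and 43.7 of Smad4 (33.0 to 35.8), each nearer to the GA level than the others of its group.

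The other 8 were smaller. They were Tgfb1 in GA JGT02 400 mouse 5 at 6.35 CPM, Acvr2b in SO resveratrol mouse 1 at 1.36, Smad2 in SO JGT02 400 mouse 3 at 10.8 and in SO JGT03 400 mouse 5 at 10.4. Smad3 stood apart in GA non-treated mouse 5 at 122 CPM, in SO JGT02 100 mouse 3 at 45.7 and in SO JGT03 400 mouse 4 at 37.1, and Smad4 in GA JGT02 400 mouse 3 at 61.5.

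The response to DEX differed between the muscles by the interaction test for 6 of the 9 genes, where it did so for 33.6% of all genes. These were Smad3 (-1.27), Acvr2a (-0.56) and Smad4 (-0.42), lower in SO, and Acvr2b (1.33), Fst (0.91) and Tgfb1 (0.64), higher.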

How the results depend on the processing

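With all 86 libraries, the count of the 9 genes called went from 5 to 2 for DEX in GA (Smad2 and Smad7 remained). It went from 5 to 3 for DEX in SO and from 6 to 2 for the interaction. Over all genes, calls went from 3812 to 1214, from 6353 to 3079 and from 5086 to 1282. There were 4 treatment calls in place of 10 in GA and 7 in place of 17 in SO. These include Tgfb1 with JGT02 100 in GA and Mstn with JGT02 400 in SO, which were not called in the tests above. For the 8 groups the count went from 5 to 4 in GA (6167 to 3070 of all genes) and from 4 to 3 in SO (5056 to 2641). For the F test it went from 3 to 2 in GA (2104 to 1909) and stayed at 5 in SO (7359 to 4681). Between the muscles it went from 6 to 5 without DEX and stayed at 8 with it. For dose it stayed at 1 in GA (243 to 29) and 0 in SO. Tgfb1 with JGT02 100 against DEX changed sign, to 0.49 in SO (adjusted p = 0.448) and 1.26 in GA (adjusted p = 0.0423). Leaving out the library labelled SO JGT02 400 mouse 1 alone gave 5 treatment calls in SO. The SO F test then called 3 genes in place of 5 (4281 in place of 7359 of all genes). Tgfb1 with JGT02 100 in SO stood at 0.49 (adjusted p = 0.436). The interaction passed for 4 genes in place of 6 (1828 in place of 5086 of all genes). DEX in SO passed for 4 in place of 5 (3506 in place of 6353). Between the muscles of non-treated mice, 5 passed in place of 6 (7074 in place of 8801). The stretch term gave 2 genes in place of 4 for the 8 groups in SO (1936 in place of 5056 of all genes), 7 treatment calls in SO and 2 in GA, and 1 gene in place of 3 in the GA F test (758 in place of 2104 of all genes). With only the groups compared, SO had 8 treatment calls. The cause was not tested.

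With 1 library left out in turn, there were 5 to 6 genes for DEX in GA, 4 to 5 in SO, 5 to 6 for the interaction, 6 to 12 treatment calls in GA and 11 to 19 in SO. It gave 4 to 6 and 4 to 5 for the 8 groups in GA and SO, 2 to 3 and 4 to 7 for the F tests, 8 to 9 and 6 for the muscles with and without DEX, and 1 and 0 for dose. DESeq2, DESeq2 size factors and no filter kept the side of the threshold of 215 of 221, 223 of 225 and 221 of 225 values. They reversed 0 calls, while 5, 6 and 6 values that passed in neither setting changed sign.

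The replicate block, whose numbers were not taken as pairs, gave 6 genes for DEX in GA, 12 treatment calls in GA and 18 in SO, and the same counts as without it elsewhere. By Spearman correlation, 3 of 3 genes most like Mstn were kept in each muscle, and 1 of 3 in GA and 0 of 3 in SO for Smad3. Over deviations from group means these were 1 and 2 for Mstn and 0 and 0 for Smad3. Depth limits Acvr2b and SO Mstn, which rest on few counts.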
